A study of Mus musculus with 54 samples.

Results

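The genes described here are 31 enzymes and regulators of cholesterol and fatty acid synthesis, followed through primary mouse microglia that had taken up alpha-synuclein (aSyn) or had been co-cultured with cells that had. They were chosen by symbol, as genes of the sterol regulatory element-binding protein (SREBP) pathway. No measured value entered the rule, but the choice was made with earlier results of these data known. All 31 were among the 16632 genes listed in the count table, and all 31 were among the 13169 genes that passed the filter on low counts and were tested. By role they comprise 5 genes of sterol sensing and transport, 8 of the mevalonate and isoprenoid steps, 10 of the squalene and sterol steps, 3 of fatty acid synthesis, and 5 of elongation, desaturation and activation.

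Cells make cholesterol from acetyl-CoA through mevalonate, isoprenoid pyrophosphates, squalene and lanosterol. When membrane sterol falls, SCAP escorts SREBP2 from the endoplasmic reticulum to the Golgi, where the protein is cleaved, and its released part enters the nucleus and activates most of the genes considered here; when sterol is plentiful, the INSIG proteins hold SCAP back. In the brain, which makes its own cholesterol, astrocytes and oligodendrocytes are the main producers, and microglia handle large amounts of sterol when they take up debris.

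The microglia came from neonatal C57BL/6 brains, were grown in flasks over astrocytes in medium with L929 cell supernatant, and were shaken off for use; each flask pooled cells of 2 brains. Donor cells received 1 µM aSyn carrying the fluorophore Atto-488 for 14 h, and acceptor cells received a violet cell dye for 15 min and no aSyn. After co-culture for 15, 30, 60, 150 or 300 min, donors and acceptors were separated by flow cytometry, and 0 min libraries of each kind also exist. RNA was sequenced from the 3′ end (QuantSeq), so each read stands for a transcript end. There were 54 libraries in 14 groups: untreated cells (Untreated_Ctrl, 6 libraries), cells with aSyn and no co-culture (aSyn_Donor, 4), Donors_0min and Acceptors_0min (3 each), Donors and Acceptors at 15, 30 and 150 min (4 each), Donors_60min (3), Acceptors_60min (4), Donors_300min (4) and Acceptors_300min (3). Acceptors differ from untreated cells by the dye and the co-culture at once, and also by the sort if untreated cells were not sorted. The labels do not say whether untreated or aSyn_Donor cells were sorted. The number in each label was read as an experiment, 1 to 4; untreated libraries that carry the same number were summed, which leaves 4 untreated samples and 52 samples in all. The labels give passage 3 for experiment 1, passage 1 for experiment 2 and passage 2 for experiments 3 and 4, so experiments 1 and 2 each differ from the rest in passage, while experiments 3 and 4 share it.

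Promoters of 26 of the 31 genes were found in the RefSeq table for GRCm38.p6 (250 bases before to 50 after the start site); those of Stard4, Fdps, Fads1, Sqle and Fdft1 were not matched. They were searched on both strands for the sterol regulatory element TCACNCCAC, a DNA site bound by SREBP, and for CCAAT, the box of the factor NF-Y with which SREBP works; the 2 motifs do not overlap. The element TCACNCCAC stood in 1 of the 26 genes, Hmgcs1, and in 1.44% of the 27025 genes of the table. The CCAAT box stood in 21 of the 26 (80.8%) and in 41.1% of all genes of the table; a gene with several listed starts counts if any of them holds the motif. Such a match describes letters only, and a window without a match says nothing about the factor. The upstream windows of Hmgcs1, which holds the element, and of 5 genes with block calls described below are shown 5′ to 3′ on the gene's strand, without annotated exon sequence, with the motifs in capitals (ATTGG is CCAAT on the other strand). They are Hmgcs1 (chr13:119690101-119690350, plus strand), Insig1 (chr5:28071162-28071362, plus strand), Insig2 (chr1:121332590-121332839, minus strand), Mvd (chr8:122443423-122443672, minus strand), Dhcr7 (chr7:143822917-143823144, plus strand) and Elovl6 (chr3:129532136-129532256, plus strand).
Hmgcs1: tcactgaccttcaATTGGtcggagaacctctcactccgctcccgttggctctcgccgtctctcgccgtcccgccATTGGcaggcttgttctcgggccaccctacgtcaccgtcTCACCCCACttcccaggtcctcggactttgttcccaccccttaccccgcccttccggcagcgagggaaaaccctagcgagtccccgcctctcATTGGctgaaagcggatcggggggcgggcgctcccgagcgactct
Insig1: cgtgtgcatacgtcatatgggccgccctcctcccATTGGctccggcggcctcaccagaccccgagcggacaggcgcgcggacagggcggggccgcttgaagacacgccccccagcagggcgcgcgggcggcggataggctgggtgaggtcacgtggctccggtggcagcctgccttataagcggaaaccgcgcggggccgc
Insig2: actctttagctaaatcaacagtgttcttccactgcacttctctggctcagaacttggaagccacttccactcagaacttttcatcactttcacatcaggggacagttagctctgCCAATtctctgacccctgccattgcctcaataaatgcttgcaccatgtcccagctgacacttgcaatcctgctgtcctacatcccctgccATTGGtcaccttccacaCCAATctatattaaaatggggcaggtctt
Mvd: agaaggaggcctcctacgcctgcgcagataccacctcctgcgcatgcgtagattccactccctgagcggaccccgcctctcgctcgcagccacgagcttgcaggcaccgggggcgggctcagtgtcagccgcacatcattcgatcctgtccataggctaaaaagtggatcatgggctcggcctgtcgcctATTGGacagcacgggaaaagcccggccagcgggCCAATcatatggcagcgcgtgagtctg
Dhcr7: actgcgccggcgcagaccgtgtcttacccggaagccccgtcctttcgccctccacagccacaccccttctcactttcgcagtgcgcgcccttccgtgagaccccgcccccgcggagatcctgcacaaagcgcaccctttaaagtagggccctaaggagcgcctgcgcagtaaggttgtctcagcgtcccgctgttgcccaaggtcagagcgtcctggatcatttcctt
Elovl6: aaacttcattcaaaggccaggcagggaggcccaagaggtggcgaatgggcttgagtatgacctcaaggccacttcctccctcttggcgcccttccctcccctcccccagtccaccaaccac
Hmgcs1 holds the sterol element and 3 CCAAT boxes, Insig2 holds 3 boxes, Mvd holds 2 and Insig1 holds 1 in the windows shown. Those of Dhcr7 and Elovl6 hold none; the CCAAT boxes counted for Dhcr7 stand at another of its listed starts.

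Library totals ran from 7807389 to 15537493 counts. Rn45s, the precursor of ribosomal RNA, made up 18.2% of counts in experiment 4 and 6.602% in the other experiments, and experiment 4 carries a separate run of facility numbers. The 10 microglia markers summed to between 2679 and 12798 CPM (a gene's share of the counts, scaled to a common TMM-adjusted total) in every sample. Of 10 astrocyte markers 9 were in the table (not Gjb6), and their sum was 11.7, 20.2, 89.99 and 155.7 CPM in the untreated samples of experiments 1 to 4 against 15.0, 11.2, 18.8 and 38.0 CPM in aSyn_Donor. The 9 oligodendrocyte-lineage markers summed to 205.5, 121.6, 604.8 and 221.2 CPM in untreated cells and to 163.6, 122.2, 257.1 and 86.9 CPM in aSyn_Donor. With the block described below, 5 of the 9 astrocyte, 4 of the 9 oligodendrocyte-lineage, 3 of the 10 microglia and 1 of 2 endothelial markers were called between these groups, against 19.2% of all genes. The defining astrocyte genes Gfap and Aqp4 ranged over 0.0872 to 15.1 CPM and 0 to 10.7 CPM in untreated cells, and over 0 to 2.62 CPM and 0 to 3.40 CPM in aSyn_Donor. Neurons, fibroblasts and endothelium gave marker sums of at most 4.97, 24.5 and 4.02 CPM in any sample. Fewer cells of a type and less RNA per cell cannot be told apart in such bulk samples.

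Every member was detected in all 52 samples, with at least 4 counts (Elovl6) in the shallowest reading. Among the sterol sensors, Srebf2, which encodes the factor itself, ranged over 8.38 to 28.6 CPM across the samples, and Scap, its escort, over 24.4 to 49.2 CPM. Insig1 and Insig2, which encode the retention proteins, ranged over 14.0 to 38.6 CPM and 16.4 to 32.4 CPM, and Stard4, a soluble sterol carrier, over 3.45 to 16.5 CPM. Group means of these 5 genes differed by at most 1.63-fold between the highest and the lowest of the 14 groups (Insig1).

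In the mevalonate branch, Acat2 and Hmgcs1, which build HMG-CoA from acetyl-CoA, ranged over 14.4 to 35.9 CPM and 22.6 to 48.3 CPM. The kinases Mvk and Pmvk ranged over 1.90 to 10.4 CPM and 9.05 to 26.5 CPM, and Mvd, the decarboxylase that follows them, over 3.94 to 16.1 CPM. Idi1, the isopentenyl pyrophosphate isomerase, spanned 0.873 to 14.2 CPM, and the prenyl synthases Fdps and Ggps1 spanned 11.2 to 44.6 CPM and 24.6 to 55.7 CPM. Mvd had the widest spread of group means of these 8 genes, 1.84-fold, from 6.98 CPM in untreated cells to 12.9 CPM in Donors_300min.

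Beyond squalene synthase (Fdft1, 6.62 to 20.3 CPM), the sterol steps are covered by squalene epoxidase (Sqle, 5.16 to 17.5 CPM), lanosterol synthase (Lss, 4.74 to 16.9 CPM), the demethylation enzymes Cyp51 (5.47 to 38.6 CPM), Msmo1 (40.1 to 87.9 CPM) and Nsdhl (7.999 to 19.9 CPM), the ketoreductase Hsd17b7 (3.28 to 9.41 CPM), the isomerase Ebp (26.1 to 81.02 CPM), the desaturase Sc5d (9.89 to 23.7 CPM) and the last reductase Dhcr7 (3.87 to 19.04 CPM). Fatty acid synthesis is covered by ATP citrate lyase (Acly, 57.9 to 86.4 CPM), acetyl-CoA carboxylase (Acaca, 5.05 to 26.7 CPM) and fatty acid synthase (Fasn, 14.6 to 44.3 CPM). Elovl5 and Elovl6, which lengthen fatty acids, ranged over 34.7 to 95.5 CPM and 0.323 to 10.97 CPM, the desaturases Fads1 and Fads2 over 11.5 to 67.0 CPM and 0.714 to 20.5 CPM, and Acsl3, which activates fatty acids, over 12.3 to 31.6 CPM. Elovl6 had the widest spread of group means of all 31 genes, 5.79-fold, highest in untreated cells and lowest in Donors_0min. Whether strand was used in counting is not given in the sources used here, and exons of 8 members overlap exons of an opposite-strand gene in the annotation: Scap, Hmgcs1, Idi1, Ggps1 (Arid4b), Fdft1 (Ctsb), Lss, Cyp51 (Akap9) and Elovl6; reads of such pairs cannot be told apart without strand.

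Which experiment a sample came from accounted for more of the variation in these genes than which group it belonged to. Of the variance of log2 CPM over the 52 samples, a median of 46.4% over the 31 genes lay between the 4 experiments and 18.4% between the 14 groups; over all 13169 genes the medians were 33.9% and 24.95%. The experiment's share was the larger in 25 of the 31 members and in 57.8% of all genes. These shares are descriptions that do not allow for the different numbers of groups and experiments. The 6 members with a larger share for the group were Mvd (51.7% against 7.95%), Insig2 (44.2% against 4.25%), Acaca (42.6% against 27.5%), Insig1 (41.5% against 13.0%), Hsd17b7 (36.4% against 18.2%) and, by a small margin, Acly (29.8% against 27.8%). At the other end stood Ggps1, with 74.7% between experiments, and Msmo1, Fads1 and Mvk, with 72.6%, 72.5% and 72.3%.

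**Figure D1:**
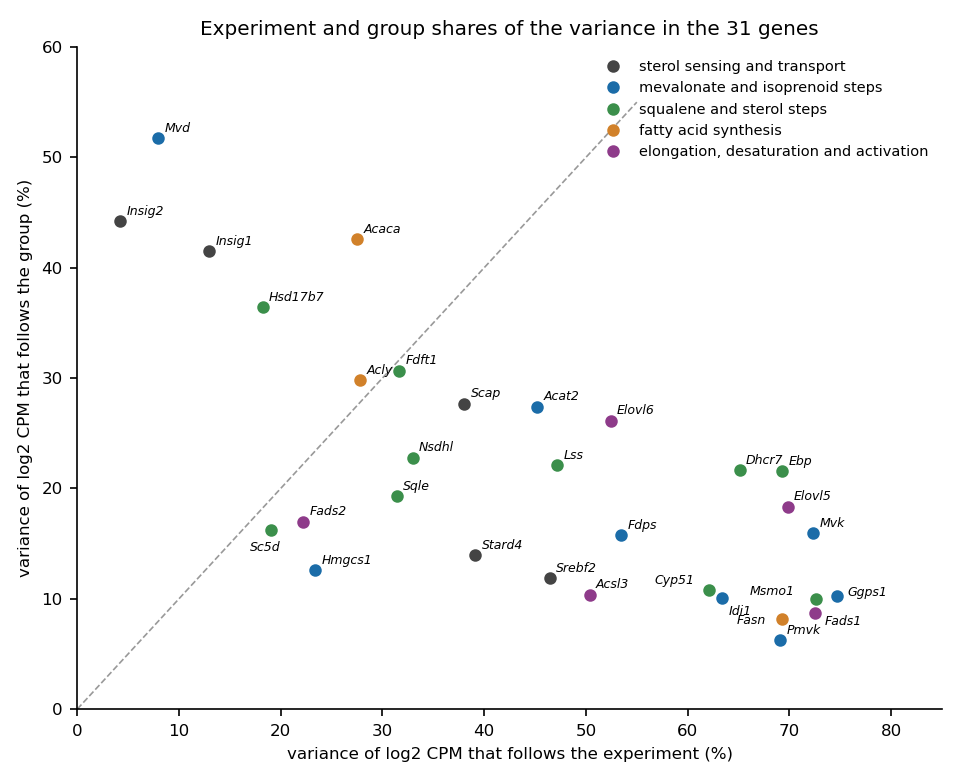
Share of the variance of log2 CPM that lay between the 4 experiments (horizontal axis, percent) against the share between the 14 groups (vertical axis, percent) for each of the 31 genes, coloured by role; the dashed line marks equal shares. Mvd, Insig2, Acaca, Insig1, Hsd17b7 and Acly lie above the line and the other 25 genes below it.

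Most members were lowest in experiment 4. Averaged over the 10 groups that all 4 experiments have, 19 of the 31 members were lowest in experiment 4 (61.3%, against 36.8% of all genes tested), and the median member differed from experiments 1 to 3 by -0.34 on the log2 scale (all genes, -0.02). Lowest there were 8 of the 10 genes of the sterol steps and all 3 of fatty acid synthesis, against 1 of the 5 sensing genes (Scap). Idi1 averaged 7.87, 5.13, 6.88 and 2.504 CPM in experiments 1 to 4, and Mvk averaged 7.75, 8.58, 6.94 and 3.19 CPM. For the desaturase Fads1 the means were 53.1, 47.4, 46.1 and 22.8 CPM. Mvk, Msmo1 and Dhcr7 were lowest in experiment 4 in each of the 10 groups. Srebf2 and Ggps1 went another way: Srebf2 averaged 12.3, 12.1, 11.4 and 18.97 CPM and was highest in experiment 4 in 9 of 10 groups, and Ggps1 averaged 30.6, 33.4, 30.0 and 48.8 CPM and was highest there in all 10. The facility numbers and the Rn45s share move with this difference between experiments. So do the microglia markers, whose sum was 2679 to 5758 CPM in the samples of experiment 4 and 7629 to 12798 CPM in the other experiments. In aSyn_Donor and donors the sums were 2679 to 3167 CPM in experiment 4 and 7683 to 11411 CPM elsewhere. The part of each in the result was not tested.

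**Figure D2:**
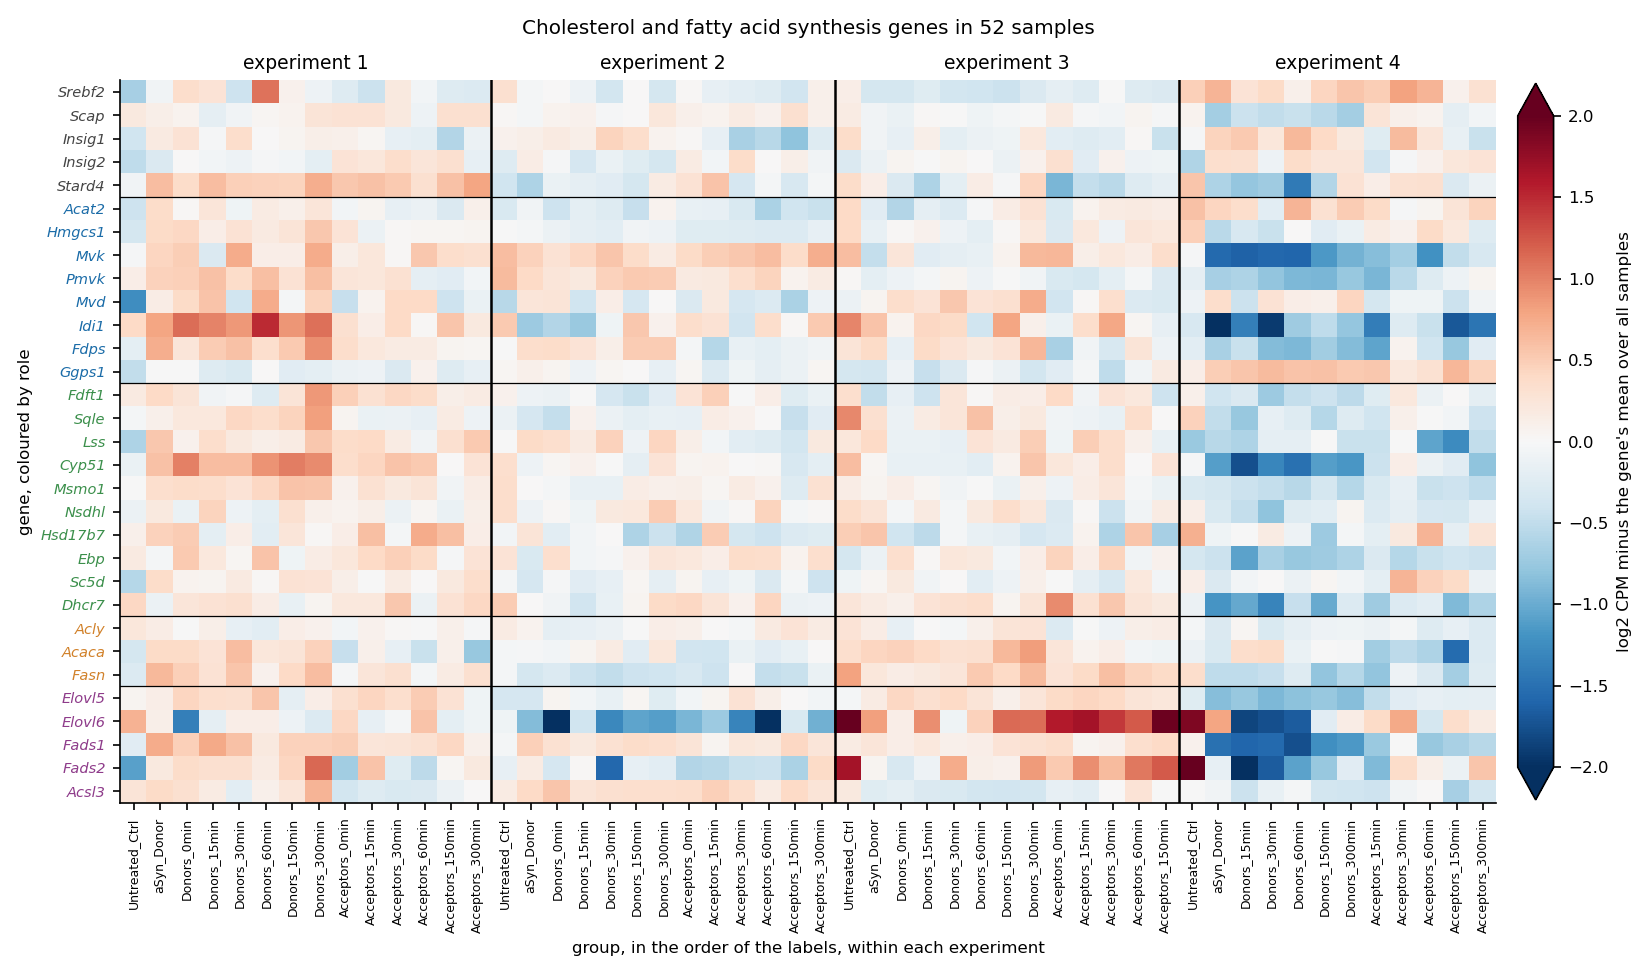
Heat map of log2 CPM minus the gene's mean over all samples (colour, from -2 in blue to 2 in red) for the 31 genes (rows, by role) in 52 samples (columns, by experiment and, within it, by group). Most rows of the sterol and fatty acid branches turn blue in the experiment 4 columns, Srebf2 and Ggps1 turn red there, and Elovl6 and Fads2 are red in the untreated samples of experiments 3 and 4.

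Exposure to aSyn alone was compared with no treatment in 4 experiments. Without the experiment as a block, the edgeR quasi-likelihood test called 0 of the 31 members at a Benjamini-Hochberg adjusted p under 0.05, while it called 2.5% of all genes; 2 members, Insig2 and Mvd, had an unadjusted p under 0.05 (17.1% of all genes), and DESeq2 also called 0. With the experiment number as a block, 4 members were called against 19.2% of all genes: Insig2 and Mvd rose (8.95% of all genes were called as higher), and Dhcr7 and Elovl6 fell (10.2% as lower). The median log2 fold change of the members was -0.11 (all genes, -0.04), and 10 of the 31 had a positive value, against 45.9% of all genes. By role, positive values came from 2 of 5 sensing genes, 4 of 8 mevalonate genes, 2 of 10 sterol genes, 1 of 3 fatty acid synthesis genes and 1 of 5 elongation and desaturation genes.

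**Figure D3:**
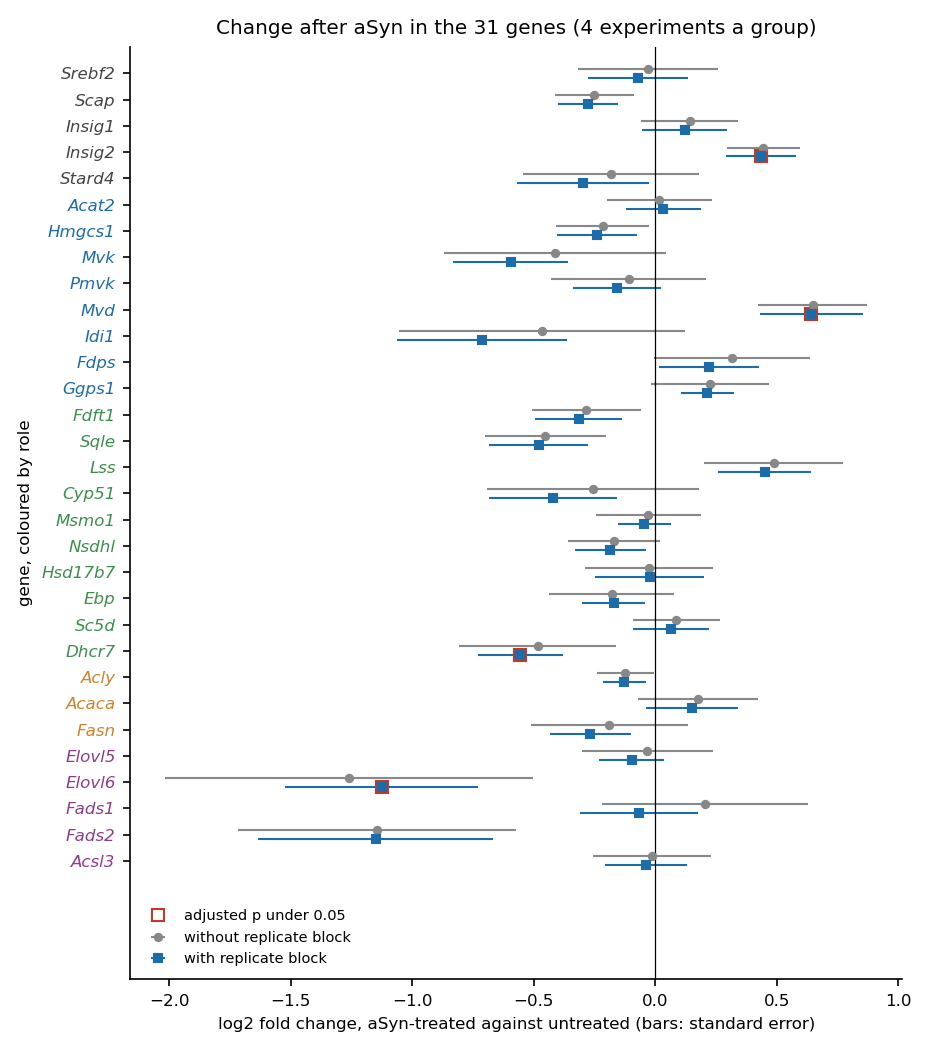
Log2 fold change of each of the 31 genes in aSyn-treated against untreated cells (horizontal axis; points with standard errors), without (grey) and with (blue) the experiment as a block; red outlines mark an adjusted p under 0.05. Outlined are Insig2 and Mvd to the right of 0 and Dhcr7 and Elovl6 to the left; Fads2 lies as far left as Elovl6 without an outline.

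Mvd, which makes isopentenyl pyrophosphate, was the member whose groups separated. Untreated cells had 3.94, 6.41, 8.74 and 8.82 CPM in experiments 1 to 4, and aSyn-treated cells had 10.6, 11.2, 9.86 and 12.2 CPM. Every aSyn-treated sample lay above every untreated one, as for 8.1% of all genes, and the gap was widest in experiment 1 and narrowest in experiment 3. On the log2 scale the change was 0.65 ± 0.22 (SE; adjusted p 0.115, edgeR), and with the block it was 0.64 ± 0.21 (SE; adjusted p 0.0279, edgeR). The blocked call was lost without experiment 1, 2 or 3 (edgeR adjusted p 0.0649, 0.112 and 0.0513). Here and below, blocked fits without 1 experiment hold fewer samples and gave fewer calls over all genes. A lost call alone therefore does not show that a result rests on 1 experiment.

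Insig2 was higher after aSyn in each of the 4 experiments. It read 17.5, 20.9, 20.5 and 16.4 CPM in experiments 1 to 4 in untreated cells and 20.4, 27.6, 23.0 and 31.5 CPM in aSyn-treated cells. The groups overlapped slightly, since the experiment 1 aSyn sample lay below the highest untreated ones. Its log2 fold change was 0.44 ± 0.15 (SE; adjusted p 0.109, edgeR), and 0.43 ± 0.14 (SE; adjusted p 0.0291, edgeR) with the block. Without experiment 4, where the gap was widest, the blocked log2 fold change was 0.28 (edgeR adjusted p 0.206), and it was also not called without experiment 2 (0.0682) or experiment 3 (0.0646). Insig1, its paralog, read 18.6, 26.0, 31.8 and 24.2 CPM and then 27.7, 26.5, 23.3 and 33.3 CPM, with no separation, 0.14 ± 0.20 (SE; adjusted p 0.776, edgeR).

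Dhcr7, the reductase that completes cholesterol, was lower after aSyn in each experiment. Untreated cells read 13.2, 14.0, 11.7 and 9.09 CPM in experiments 1 to 4, against 9.06, 9.88, 11.1 and 4.28 CPM with aSyn. The groups overlapped, and the experiment 4 sample was the lowest of each. The log2 fold change was -0.49 ± 0.32 (SE; adjusted p 0.458, edgeR), and -0.56 ± 0.17 (SE; adjusted p 0.0215, edgeR) with the block; without experiment 1, 2 or 4 the blocked adjusted p from edgeR was 0.0579, 0.0861 and 0.194.

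Elovl6, which extends palmitate to stearate, had the largest difference without the block and few counts, between 4 and 187 in any sample. It read 3.03, 1.70, 10.97 and 7.05 CPM in experiments 1 to 4 in untreated cells and 1.99, 0.924, 3.34 and 3.23 CPM with aSyn, lower in each experiment, with the 2 highest values in the untreated samples of experiments 3 and 4. On the log2 scale the change was -1.26 ± 0.76 (SE; adjusted p 0.402, edgeR), and -1.13 ± 0.40 (SE; adjusted p 0.0409, edgeR) with the block; leaving out any 1 experiment ended the blocked call (edgeR adjusted p 0.0503 to 0.280). Fads2, the delta-6 desaturase, had the same untreated samples on top: 2.02, 3.97, 14.5 and 20.5 CPM against 5.08, 4.97, 4.61 and 3.93 CPM with aSyn. Fads2 was lower in 2 of 4 experiments and was called in neither fit (with the block, -1.15 ± 0.48, SE, adjusted p 0.0893, edgeR). The astrocyte marker sums given above were also highest in the untreated samples of experiments 3 and 4 (89.99 and 155.7 CPM), and the oligodendrocyte-lineage sum was highest in that of experiment 3 (604.8 CPM); their part in these results was not tested. In experiments 1 and 2 alone, chosen after seeing the data, the blocked log2 fold change of Elovl6 was -0.74, still lower with aSyn in each. That subset holds fewer samples and does not test a part of astrocyte or oligodendrocyte-lineage RNA.

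Among the members that were not called, Sqle read 8.58, 8.16, 17.5 and 12.3 CPM in experiments 1 to 4 in untreated cells and 9.51, 6.96, 11.1 and 6.28 CPM with aSyn, -0.48 ± 0.20 (SE; adjusted p 0.0900, edgeR) with the block. Lss, which closes the sterol rings, was higher with aSyn in 4 of 4 experiments, at 7.47, 11.5, 13.5 and 6.86 CPM untreated and 16.9, 15.0, 15.3 and 7.77 CPM with aSyn (0.45 ± 0.19, SE, adjusted p 0.0942, edgeR with the block). Scap was lower in 4 of 4, at 44.9, 39.9, 44.0 and 41.2 CPM and then 42.7, 38.3, 37.2 and 24.5 CPM (-0.28 ± 0.12, SE, adjusted p 0.111, edgeR with the block). Hmgcs1, the HMG-CoA synthase of the pathway, went from 37.0 ± 9.47 to 31.9 ± 8.46 CPM (SD, n = 4 in each group), and its log2 fold change of -0.22 was within the spread.

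The experiments disagreed on the direction of the pathway as a whole. In experiment 1, 26 of the 31 members were higher with aSyn and the median difference in log2 CPM was 0.46; in experiment 4, 6 of 31 were higher and the median was -0.49. Experiments 2 and 3 lay between, with 13 and 10 members higher and medians of -0.09 and -0.21. Idi1 shows the range: it read 6.56, 7.20, 9.86 and 3.92 CPM in untreated cells and 8.62, 2.91, 7.40 and 0.873 CPM with aSyn, up in experiment 1 and down in the other 3. Fads1 read 33.8, 38.3, 44.3 and 41.8 CPM and then 66.3, 55.1, 46.7 and 14.0 CPM, up in experiments 1 to 3 and down in experiment 4. Hmgcs1 read 25.7, 32.8, 43.8 and 45.8 CPM and then 43.0, 32.1, 29.8 and 22.6 CPM, again up in experiment 1 only. Without experiment 1, the blocked fit called 6 members (Fads2, Fasn, Hmgcs1, Insig2, Mvk and Sqle), of which only Insig2 was among the 4 called with all experiments; without experiment 2 it called 0, without experiment 3 it called 1 (Dhcr7), and without experiment 4 it called 2 (Fads1 and Mvd). Over all genes these fits called 2101, 1877, 1380 and 1620, against 2524 with every experiment.

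The untreated sample ranked differently in the 4 experiments. Among the 14 samples of experiment 1 that of experiment 1 was the lowest for 14 of the 31 members (45.2%, against 9.28% of all genes): Srebf2, Insig2, Stard4, Acat2, Hmgcs1, Mvd, Fdps, Ggps1, Lss, Cyp51, Sc5d, Fasn, Fads1 and Fads2. In experiments 3 and 4 the untreated sample was instead the highest for 11 members each (35.5%, against 17.8% and 20.9% of all genes). Sqle, Hmgcs1, Nsdhl, Fasn, Elovl6 and Fads2 were among those 11 in each of experiments 3 and 4. All comparisons with untreated cells rest on these 4 samples. The astrocyte marker sum of the untreated cells was lowest in experiment 1 (11.7 CPM) and highest in experiments 3 and 4. The microglia marker sum was 8585, 12668, 8708 and 5569 CPM in untreated cells of experiments 1 to 4. In aSyn-treated cells it was 8282, 7689, 7683 and 3072 CPM. The part of either in the split was not tested.

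**Figure D4:**
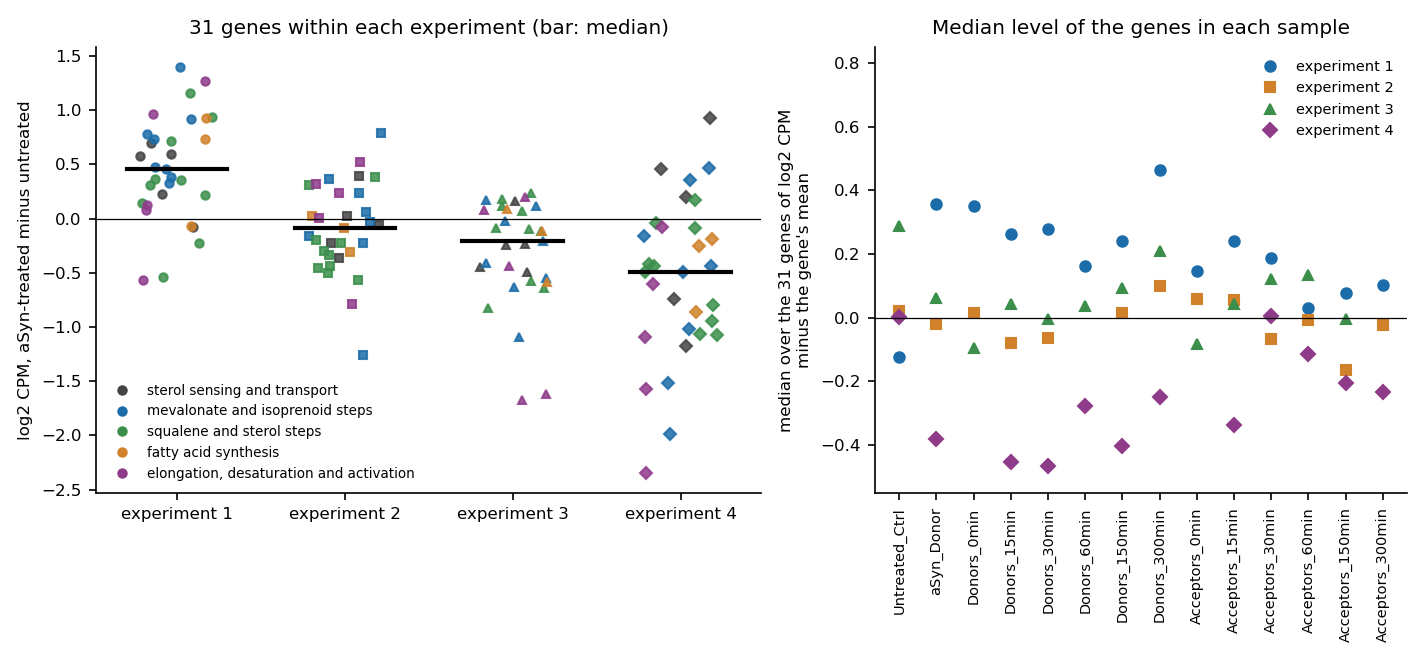
Left, difference in log2 CPM between aSyn-treated and untreated cells for each of the 31 genes (points, coloured by role) within each experiment, with the median as a bar; the medians are 0.46, -0.09, -0.21 and -0.49. Right, the median over the 31 genes of log2 CPM minus the gene's mean, for every sample by group (horizontal axis) and experiment (marker); experiment 4 lies lowest in 8 of the 10 groups it shares with the others, and experiment 1 lies lowest in untreated cells.

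Acceptor cells, which received no aSyn of their own, were compared with untreated cells at each time; the 6 comparisons share the untreated samples. Without the block edgeR called 0 members at every time, against 0, 0, 0.114, 0.0683, 0.137 and 0% of all genes at 0, 15, 30, 60, 150 and 300 min. Between 1 and 3 members had an unadjusted p under 0.05 at each time (5.47% to 8.22% of all genes), and DESeq2 called 1 member, Insig2 at 30 min. With the block, Insig2 was called as higher at 0, 30 and 150 min and Elovl6 as lower at 60 min, against 0.995, 2.25, 3.6, 4, 4.78 and 0.623% of all genes at the 6 times. In those directions alone the shares of all genes were 0.387% at 0 min, 1.56% at 30 min, 2.32% at 150 min and 2.07% at 60 min. The median log2 fold change of the members was negative at each time, from -0.03 at 30 min to -0.21 at 150 min, where 6 of 31 were positive (47.4% of all genes, with a median of -0.02). In experiment 1 it was positive at every time, with medians from 0.23 to 0.37, and in experiments 2 to 4 it was negative at every time.

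Insig2 separated acceptors from untreated cells at 5 of the 6 times. Against the untreated 17.5, 20.9, 20.5 and 16.4 CPM, acceptors read 30.2, 28.0 and 31.3 CPM in experiments 1 to 3 at 0 min and 29.3, 24.0, 21.3 and 19.2 CPM in experiments 1 to 4 at 15 min. They read 31.8, 32.3, 26.7 and 24.5 CPM at 30 min, 29.7, 25.1, 23.2 and 26.6 CPM at 60 min and 31.2, 27.1, 23.6 and 29.1 CPM at 150 min. At 300 min they read 22.2, 23.8 and 30.1 CPM in experiments 1, 2 and 4. Only at 15 min did the groups overlap; non-overlap was found for 6.17, 3.55, 4.15, 4.56 and 5.26% of all genes at the other times. Fads1 was the other member without overlap, at 0 min (55.6, 47.3 and 50.4 CPM in experiments 1 to 3 in acceptors against 33.8, 38.3, 44.3 and 41.8 CPM in untreated cells). The Insig2 log2 fold change was 0.66 ± 0.16 (SE; adjusted p 0.427, edgeR) at 0 min, 0.61 ± 0.15 (SE; adjusted p 0.0919, edgeR) at 30 min and 0.56 ± 0.15 (SE; adjusted p 0.112, edgeR) at 150 min without the block.

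With the block the Insig2 values were 0.69 ± 0.15 (SE; adjusted p 0.0214, edgeR) at 0 min, 0.62 ± 0.14 (SE; adjusted p 0.0119, edgeR) at 30 min and 0.55 ± 0.14 (SE; adjusted p 0.0193, edgeR) at 150 min. At 60 min the blocked value was 0.47 ± 0.14 (SE; adjusted p 0.0524, edgeR). Each blocked call was lost when a single experiment was left out: at 30 min without experiment 1, 2 or 3 (edgeR adjusted p 0.0562 to 0.122), at 0 min without 1, 2 or 3 (0.058 to 0.240), and at 150 min without 1, 3 or 4 (0.0584 to 0.153). Throughout these alternatives the blocked log2 fold change of Insig2 stayed between 0.46 and 0.81.

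Elovl6 was lower than in untreated cells in every experiment at every time. At 60 min it read 2.76, 0.324, 4.47 and 1.39 CPM against 3.03, 1.70, 10.97 and 7.05 CPM in untreated cells, -1.34 ± 0.76 (SE; adjusted p 0.733, edgeR) without the block and -1.41 ± 0.40 (SE; adjusted p 0.0361, edgeR) with it. The groups overlapped. In experiments 1 and 2 alone, chosen after seeing the data, the blocked log2 fold change was -0.82. The astrocyte markers summed to 8.99 to 48.5 CPM in Acceptors_60min, against 11.7 to 155.7 CPM in untreated cells. Sqle was below its untreated partner in 3 of 3 experiments at 300 min, at 8.23, 7.52 and 6.63 CPM in experiments 1, 2 and 4 (-0.64 ± 0.27, SE, adjusted p 0.887, edgeR). Insig1 was below its untreated partner in 4 of 4 experiments at 150 min, at 16.2, 14.0, 17.99 and 22.1 CPM, with a log2 fold change of -0.52 ± 0.20 (SE; adjusted p 0.448, edgeR) and -0.54 ± 0.18 (SE; adjusted p 0.0694, edgeR) with the block.

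Donor cells in co-culture were compared with aSyn_Donor cells, which had received aSyn without co-culture; the 6 comparisons share those 4 samples. Without and with the block edgeR called 0 members at every time. Over all genes the call rate was 0.0304% at 300 min and 0% at the other 5 times without the block, and 0.304% at 300 min and 0% at the others with it. With the block 4, 1, 3, 2, 1 and 2 members had an unadjusted p under 0.05 at 0, 15, 30, 60, 150 and 300 min, against 5.51, 3.3, 3.11, 5.46, 3.08 and 8.6% of all genes. Only Ebp at 0 min and Hsd17b7 at 150 min had an unadjusted p under 0.05 without the block (0.904% to 2.78% of all genes by time), and DESeq2 called 0. Ebp, the sterol isomerase, read 78.8, 69.5 and 69.5 CPM in experiments 1 to 3 at 0 min against 53.1, 44.6, 50.4 and 40.4 CPM in aSyn_Donor, without overlap (as for 5.6% of all genes), 0.62 ± 0.28 (SE; adjusted p 1.00, edgeR). Hsd17b7 read 6.61, 3.56, 4.89 and 3.28 CPM at 150 min against 7.74, 6.68, 8.27 and 5.24 CPM, -0.61 ± 0.27 (SE; adjusted p 1.000, edgeR); at 60 min its groups did not overlap either (4.76, 5.02 and 5.17 CPM in experiments 1, 3 and 4), as for 2.42% of all genes.

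At 300 min, 23 of the 31 members had a positive log2 fold change against aSyn_Donor, with a median of 0.13 (all genes, 0.01; 51.8% of all genes were positive). The medians within experiments 1 to 4 were 0.11, 0.06, 0.13 and 0.03. Stard4 read 15.8, 10.6, 12.8 and 11.6 CPM against 14.7, 6.11, 10.4 and 6.11 CPM, higher in 4 of 4 experiments (0.45 ± 0.36, SE, adjusted p 1.00, edgeR). Acaca read 20.7, 17.6, 26.7 and 14.6 CPM against 19.5, 14.8, 20.1 and 12.1 CPM, also higher in 4 of 4 (0.26 ± 0.25, SE, adjusted p 1.00, edgeR). Dhcr7 and Elovl5 were the other members higher in all 4 experiments, with log2 fold changes of 0.33 and 0.05. No test separated any of these values from 0. Over the 6 times, the edgeR test of change called 0 members in donors (0.0607% of all genes), 0 in acceptors (0.00759%) and 0 for the donor minus acceptor difference (0% of all genes). With the block these counts were also 0, against 0.577%, 0.137% and 0.0456% of all genes. Unadjusted p-values under 0.05 were found for 0 members in each of the 3 tests without the block (1.88%, 1.86% and 0.858% of all genes), and for 3, 1 and 0 with it (7.72%, 6.64% and 3.78%); DESeq2 called 0 in each.

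Donors and acceptors from the same co-cultures were compared at each time. Without the block edgeR called 0 members at every time, against 0.251, 0.888, 0.805, 0.418, 0.167 and 0.0304% of all genes at 0, 15, 30, 60, 150 and 300 min; between 0 and 3 members had an unadjusted p under 0.05 (6.11% to 11.5% of all genes by time), and DESeq2 called 0. With the block 1 member was called, Insig1 at 150 min, against 4.28, 9.57, 10.8, 6.7, 5.19 and 1.38% of all genes at the 6 times; 2.95% of all genes were called as higher in donors at 150 min. The median log2 fold change of the members was -0.11 at 30 min and 0.15 at 300 min, where 23 of 31 were positive (50.4% of all genes). In experiment 4 alone, the median at 30 min was -0.42 and 3 of 31 members were higher in donors.

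Insig1 was higher in donors than in acceptors at 150 min in each experiment. Donors read 25.6, 31.3, 23.2 and 32.4 CPM in experiments 1 to 4, and acceptors read 16.2, 14.0, 17.99 and 22.1 CPM. The groups did not overlap, as for 4.62% of all genes. The log2 fold change was 0.68 ± 0.20 (SE; adjusted p 0.197, edgeR), and 0.68 ± 0.18 (SE; adjusted p 0.0170, edgeR) with the block; without experiment 1 or 2 the blocked call was lost (edgeR adjusted p 0.0925 and 0.176). At 300 min donors read 26.6, 25.7, 28.3 and 28.0 CPM in experiments 1 to 4 and acceptors 22.6, 20.5 and 17.9 CPM in experiments 1, 2 and 4, again without overlap (as for 6.03% of all genes), 0.45 ± 0.20 (SE; adjusted p 0.2501, edgeR) with the block. The difference at 150 min came with the lowest Insig1 mean of the 14 groups in acceptors (17.6 ± 3.44 CPM, SD, n = 4), while donors stood at 28.1 ± 4.45 CPM, close to aSyn_Donor (27.7 ± 4.19 CPM).

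Mvd was higher in donors than in same-numbered acceptors in each of the 3 paired experiments at 0, 60 and 300 min and in 4 of 4 at 150 min. At 0 min donors read 12.5, 11.4 and 12.2 CPM in experiments 1 to 3 and acceptors 6.90, 7.73 and 7.23 CPM, without overlap (as for 16.8% of all genes). This gave a log2 fold change of 0.73 ± 0.26 (SE; adjusted p 0.371, edgeR), and 0.72 ± 0.25 (SE; adjusted p 0.0860, edgeR) with the block. At 300 min acceptors read 8.66, 8.89 and 9.06 CPM in experiments 1, 2 and 4 and donors 13.0, 9.58, 16.0 and 12.8 CPM in experiments 1 to 4, also apart, 0.54 ± 0.24 (SE; adjusted p 0.783, edgeR). At 0 min Insig2, Scap and Fdft1 were the other members whose groups did not overlap; all 3 were lower in donors, and Insig2 read 25.1, 24.7 and 25.9 CPM there against 30.2, 28.0 and 31.3 CPM in acceptors. At 15 and 30 min the Mvd log2 fold changes were 0.07 and 0.07, and the groups overlapped.

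Acaca, the rate-limiting carboxylase of fatty acid synthesis, had a positive log2 fold change at every time, from 0.44 at 0 min to 0.72 at 300 min. At 30 min donors read 23.1, 16.7, 18.5 and 19.4 CPM in experiments 1 to 4 and acceptors 13.4, 13.7, 16.5 and 10.4 CPM, without overlap (as for 5.83% of all genes), 0.53 ± 0.25 (SE; adjusted p 0.407, edgeR) and 0.55 ± 0.19 (SE; adjusted p 0.0522, edgeR) with the block. Donors exceeded their acceptors in every experiment at every time but 150 min (3 of 4). At 300 min the difference was 0.72 ± 0.27 (SE; adjusted p 0.630, edgeR) on the log2 scale, and 0.57 ± 0.21 (SE; adjusted p 0.159, edgeR) with the block. Fdps, the farnesyl pyrophosphate synthase, was higher in donors in 4 of 4 experiments at 15 and 150 min, with blocked values of 0.53 ± 0.21 (SE; adjusted p 0.0949, edgeR) and 0.40 ± 0.21 (SE; adjusted p 0.267, edgeR). Hsd17b7 was lower in donors at 60 min, -0.63 ± 0.29 (SE; adjusted p 0.452, edgeR).

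**Figure D5:**
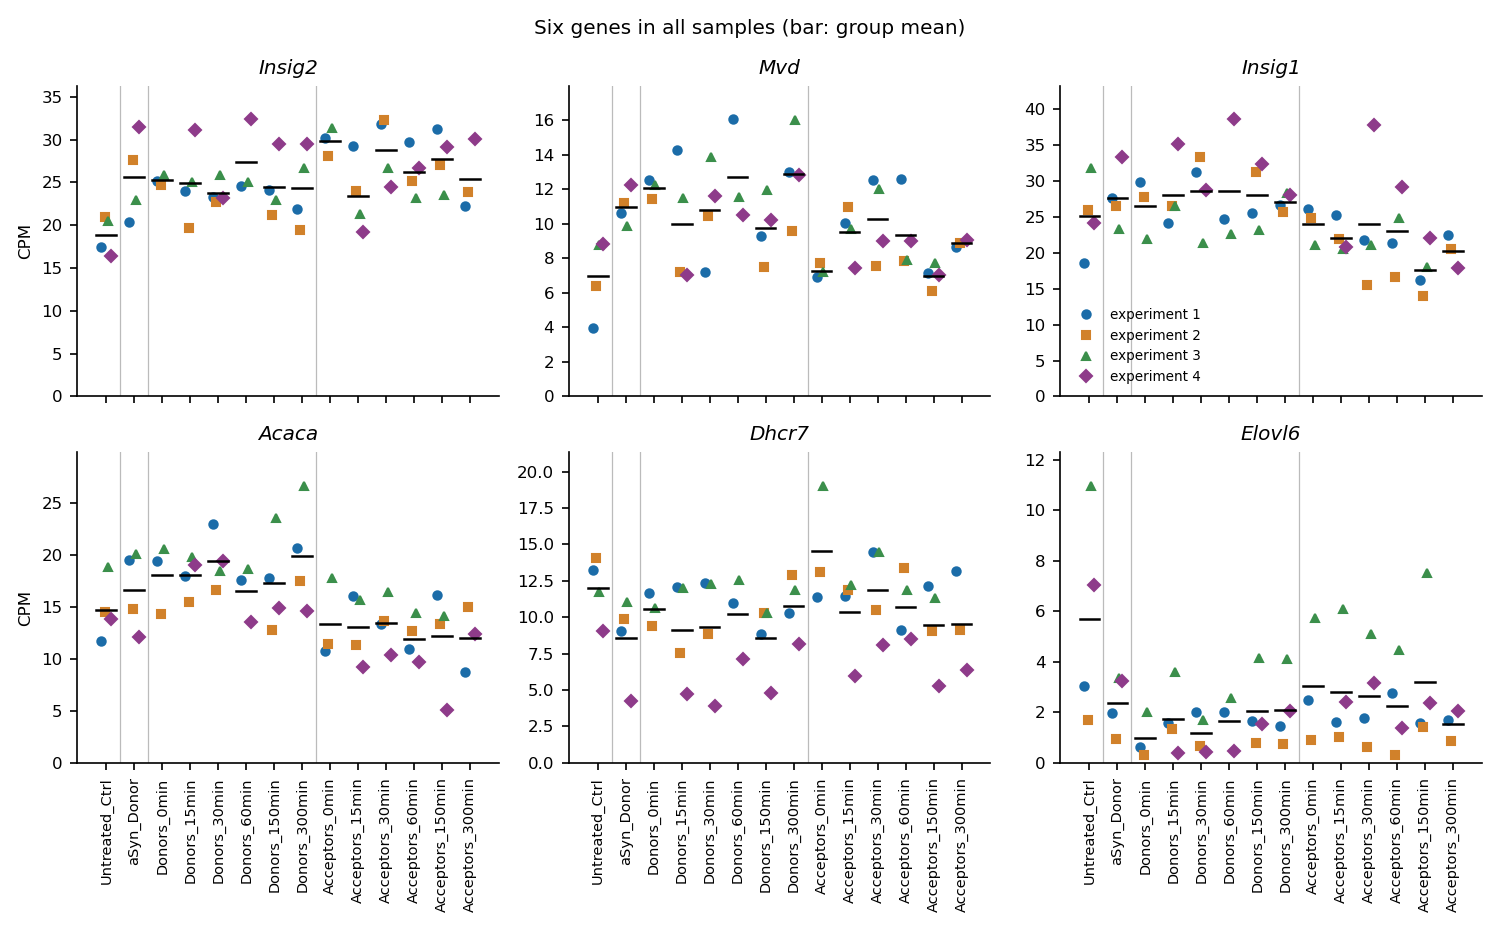
CPM of Insig2, Mvd, Insig1, Acaca, Dhcr7 and Elovl6 in all 52 samples (vertical axis from 0), by group, with 1 marker an experiment and the group mean as a bar; grey lines set off untreated cells, aSyn_Donor, donors and acceptors. Insig2 is lowest in untreated cells, Acaca and Mvd are mostly higher in donors than in acceptors, and Dhcr7 is lowest in the experiment 4 samples.

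Srebf2 had group means between 11.6 CPM in Acceptors_150min and 17.7 CPM in Donors_60min, and that highest mean rested on 1 sample (28.6, 10.1 and 14.4 CPM in experiments 1, 3 and 4). Its log2 fold changes in the 19 pairwise comparisons lay between -0.40 and 0.33, and the smallest edgeR adjusted p was 0.643 (0.226 with the block). Scap lay between 35.4 and 44.7 CPM by group mean, with log2 fold changes from -0.26 to 0.14. In donors of experiment 4 it read 24.4 to 29.2 CPM, below every other donor sample (34.6 to 46.8 CPM).

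Hmgcs1 had group means between 30.5 CPM in Acceptors_300min and 37.0 CPM in untreated cells, and log2 fold changes between -0.28 and 0.28. Sqle, a rate-limiting step of the sterol branch, was highest in untreated cells (11.6 CPM) and lowest in Acceptors_300min (7.46 CPM). Idi1 ranged widest of these 6 genes, from 10 to 185 counts a sample, and its group means, 4.54 to 7.16 CPM, differed less than its experiments. Fasn had group means between 24.0 CPM in Acceptors_150min and 30.6 CPM in untreated cells, while its means by experiment were 31.6, 20.1, 34.5 and 19.3 CPM in experiments 1 to 4. None of Hmgcs1, Sqle, Idi1, Srebf2, Scap and Fasn was called by edgeR in any of the 19 comparisons, with or without the block.

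A second list of 42 genes of lipid metabolism outside the 31, of which 38 were tested, gave 1 call without the block and 42 calls of 17 genes with it, 32 higher and 10 lower, over the 19 comparisons. These were 0.139% and 5.82% of the list's tests, against 0.285% and 3.87% of those of all genes. The call without the block was Acss2, which makes acetyl-CoA from acetate: at 30 min donors read 4.18, 5.69, 12.3 and 4.64 CPM in experiments 1 to 4 and acceptors 1.82, 0.887, 1.98 and 2.67 CPM, 1.87 ± 0.42 (SE; adjusted p 0.0168, edgeR). Its exons overlap those of Acss2os, Ggt7 and Gss on the other strand. In aSyn-treated against untreated cells 10 of the 38 (26.3%) were called with the block, against 19.2% of all genes: 7 higher (Acsl1, Acsl5, Acss2, Elovl1, Fabp5, Npc2 and Nus1) and 3 lower (Acat1, Lbr and Mid1ip1). Lbr, a sterol reductase of the nuclear envelope, was lower with aSyn with the block, -0.79 ± 0.18 (SE; adjusted p 0.00164, edgeR), and Fabp5, a fatty acid carrier, was higher, 0.79 ± 0.11 (SE; adjusted p 1.22e-06, edgeR). Of 5 genes of the liver X receptor branch, which answers to oxysterols, 1 was called in aSyn-treated against untreated cells without the block (Nr1h3) and 3 with it (Nr1h3, Abcg1 and Nr1h2), while Abca1 and Mylip were not; the shares of all genes called were 2.5% and 19.2%. Nr1h3, which encodes liver X receptor alpha, read 4.24, 9.77, 12.9 and 4.11 CPM untreated and 27.4, 30.5, 17.7 and 34.7 CPM with aSyn (1.83 ± 0.37, SE, adjusted p 0.00303, edgeR).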

How the data were processed

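The authors deposited 1 table of read counts per gene for all 54 libraries, and a normalized table that was not used. Per the labels' protocols, QuantSeq 3′ forward libraries were sequenced as single reads on an Illumina HiSeq2500; the submitters' processing notes name mm10, STAR, Partek and DESeq2, while the counting tool and its use of strand are not given in the sources used here. The deposited counts were tested as they stand with edgeR 4.0.16 (quasi-likelihood F test, TMM scaling, filterByExpr with a minimum count of 10, 14 group means in 1 fit, 13169 genes, Benjamini-Hochberg adjustment over all of them, called at an adjusted p under 0.05), using limma 3.58.1 and R 4.3.3. DESeq2 1.42.0 served as an alternative, and scripts were tested on simulated data. CPM and log2 CPM (prior count 2) are on TMM-scaled totals. Untreated libraries of 1 number (2 pairs) were summed, since their counts differed less than those of other pairs (chi-square per degree of freedom 12.1 and 10.3, against 24.2 to 288.0), though by more than sampling noise.

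The numbers in the labels were taken to pair the samples. Over all genes, deviations of same-numbered samples from their group means correlated at 0.199 or more in every pair. Means between different numbers were -0.184 to -0.116. Deviations cancel out within a group, which by itself makes these means negative when same-numbered samples correlate, so they are no separate baseline. The fit with the label number as a block is given beside the fit without it. Where nothing says that samples came from separate cultures, p-values measure only the spread between these samples. The members, the second list and the marker lists were chosen with earlier results of these data known. Values in every sample are given for members called in any of the 19 comparisons in either fit, then for those with the smallest unadjusted p until 8 were reached (Insig2, Mvd, Dhcr7, Elovl6, Insig1, Acaca, Sqle and Hsd17b7); the others shown in full were picked after their values were seen. Promoters came from RefSeq (GRCm38.p6) and gene overlaps from GENCODE M21 (GRCm38). Some genes of the second list are not reported here by name.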

Additional observations from a re-analysis of the deposited data

Results flagged for a closer look

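In groups of 4 samples, 6 of 130 gene and group combinations held a sample far from the other 3, about what chance gives (1 in 20). Experiment 4 supplied 5 of the 6. Dhcr7 read 5.95 CPM in Acceptors_15min of experiment 4 against 11.5 to 12.2 CPM in the others, and Sqle read 5.16 CPM in its Donors_15min against 9.44 to 10.2 CPM. Scap read 27.95 CPM in Donors_30min of experiment 4, against 37.5 to 38.8 CPM. Srebf2 read 17.5 CPM there against 10.02 to 10.4 CPM, and 21.5 CPM in Acceptors_60min of experiment 4 against 11.1 to 12.8 CPM. Elovl6 read 7.502 CPM in Acceptors_150min of experiment 3, against 1.44 to 2.37 CPM.

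The values of Dhcr7 at 300 min had opposite signs in the 2 cell populations, and neither was called by edgeR. Its log2 fold change was 0.33 in donors against aSyn_Donor, higher in 4 of 4 experiments, and -0.33 in acceptors against untreated cells, higher in 0 of 3. The difference between these contrasts was not tested.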

How the results depend on the processing

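Counts of members called by edgeR stayed at 0 in all 22 tests with size factors, without the filter and with only the compared groups fitted. Over all genes the 19 pairwise comparisons then held 695, 595 and 116 calls, against 712 in the main fit. DESeq2 called 1 member at 30 min in acceptors against untreated cells, and gave 1571 calls over all genes and pairwise comparisons. With untreated libraries kept separate, Insig2 was called in aSyn-treated cells and in acceptors at 30 and 150 min (1 member each). That setting counts same-numbered untreated libraries as independent samples, although they were read as belonging to 1 experiment. Its comparisons with untreated cells gave 817 calls over all genes. The replicate block gave 4 members in aSyn-treated against untreated cells, 1 in acceptors at 0, 30, 60 and 150 min, 1 in donors against acceptors at 150 min, and changed no other count. Leaving out 1 experiment gave 0 to 1 members in aSyn-treated cells (Fads1 without experiment 4) and 0 to 1 in acceptors at 30 min (Insig2 without experiment 4). In the blocked fit the same step gave 0 to 6 members in aSyn-treated cells and 0 to 1 in acceptors at 0 and 60 min. It gave 0 to 2 in acceptors at 30 and 150 min, and 0 to 1 in donors against acceptors at 150 min. Without experiment 4 the blocked fit gave 13 calls of 7 members over all pairwise comparisons, so some fell in comparisons not listed here. Those 13 came from 589 member tests, while all genes together gave 8384 calls in that fit. For the counts above in acceptors and in donors against acceptors, shares over all genes are not given. None of these counts can therefore be read as a surplus of members. Leaving out 1 experiment in the blocked fit was chosen after seeing the data. So were experiments 1 and 2 alone, where untreated cells had low astrocyte markers. There, 1 member was called in aSyn-treated cells (Fads1), and 1 in donors against acceptors at 30 and at 150 min (Insig1). Donors_60min then holds 1 sample, assumed to vary like the other groups, so calls in its comparisons are left out. Totals over all genes for this setting take them in and are not given. With the block, experiments 1 and 2 gave 0 members in acceptors at 0 and 60 min and 2 at 150 min. Further member calls fell in comparisons not listed here. Shares over all genes are not given for this fit, so its counts cannot be read as a surplus of members. Among the log2 fold changes followed through these settings, which covered only part of the genes and comparisons, none changed sign. Genes such as Hmgcs1 and Fads1 differed in direction between experiments, as described above. The cause of these shifts was not tested. Without Rn45s in the totals, mean CPM in untreated cells was 21.2 for Insig2, against 18.8 on the TMM-scaled totals used elsewhere. For Scap that mean was 48.3 CPM, while its untreated samples read 39.9 to 44.9 CPM on the TMM-scaled totals. Elovl6, with 4 to 187 counts a sample, is limited by depth.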
